A study of Mus musculus with 10 samples.

Results

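Chemokines are small secreted proteins that steer migrating leukocytes by binding G protein-coupled receptors on their surface. The ligands are classed as CC, CXC or CX3C by the spacing of their first cysteines, and the receptors are named for the class they bind. In the small intestine the epithelium secretes ligands that recruit gut-homing lymphocytes, and Peyer's patches and smaller follicles depend on ligands made by stromal cells. The genes described here are those whose array symbol names a CC, CXC or CX3C chemokine or a receptor for one, leaving out Ccl5 and Cxcr5. There were 51 of them, with 65 probes, among 18138 gene symbols and 25697 probes on the array; 33 code for ligands and 18 for receptors.

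Ileal RNA of 10 FVB/N mice aged 3 to 4 months was measured, 5 labelled iPGC-1β and 5 wild-type and described as littermates, with no treatment given for either group. Ppargc1b codes for PGC-1β, a transcriptional coactivator best known for its part in mitochondrial gene expression. The prefix usually stands for a transgene that overexpresses PGC-1β in gut epithelium. The labels do not say so, and they name neither its promoter nor the number of founder lines.

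A probe counted as above background on an array at a detection p under 0.05, and a gene was tested if a probe of it passed on at least 5 of the 10 arrays. Between 12370 and 12771 probes per array were above background, and 9365 genes were tested. Of the 12 markers of ileal epithelium on the array 10 were tested, among them the ileal bile acid binding gene Fabp6 at 14.55 ± 0.16 on wild-type and 14.64 ± 0.12 on iPGC-1β arrays (log2 intensity, SD, n = 5 each), while Fabp2 and Slc10a2 were above background on 0 arrays. The single Ppargc1b probe read 0.61 lower on the iPGC-1β arrays on the log2 scale (7.70 ± 0.41 against 8.32 ± 0.22, SD, n = 5 each; limma's adjusted p = 0.0452). It may not read a transgene, so it does not check the labels, and every direction given here rests on the arrays as labelled. The second principal component, with 19.3% of the variance, had wild-type replicate 5 at one end and iPGC-1β replicate 3 at the other. Both arrays also held extreme values of several genes described here, and values without them are given beside such genes or, for those near 0, with the processing alternatives.

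Roughly as many chemokine genes were above background as genes in general: 25 of the 51 (49.0%) were tested, against 51.6% of all symbols. Ligands were found more often than receptors, with 19 of 33 ligand genes and 6 of 18 receptor genes tested. At least 1 probe was above background on all 10 arrays for 14 genes, and on no array for 12. The number of these genes above background was 24 to 31 on the wild-type arrays, with 31 on replicate 5, and 20 to 25 on the iPGC-1β arrays, with 20 on replicate 3.

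Among the CC ligands, Ccl6, Ccl9, Ccl11, Ccl21a, Ccl21c, Ccl25 and Ccl27 were above background on every array. Ccl4 was so on 9 arrays, and Ccl19 and Ccl28 on 5 wild-type and 3 iPGC-1β arrays each. The monocyte attractants Ccl2, Ccl3 and Ccl7 were above background on 1 or 2 arrays, and so were Ccl17, Ccl20, Ccl24 and Ccl26. Ccl1 and Ccl22 were above background on none. Ccl20 is known as the ligand of the epithelium that overlies Peyer's patches.

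Of the CXC and CX3C ligands, Cxcl9, Cxcl12, Cxcl13, Cxcl14, Cxcl16 and Cx3cl1 were above background on all 10 arrays, Cxcl4 (the platelet gene now named Pf4) on 9, Cxcl1 on 6 and Cxcl10 on 5. Cxcl2 and Cxcl17 were so on 1 and 2 arrays. Cxcl3, Cxcl11 and Cxcl15 were above background on none. The RefSeq table for the mouse assembly GRCm38.p6 lists Cxcl11 as a transcribed pseudogene. Whether this holds in FVB/N mice was not checked.

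The receptors were sparse. Ccr6, which binds Ccl20, was above background on 10 arrays when either of its probes is counted, Cx3cr1 on 9, Cxcr4 on 8, Ccrl2 on 7, Ccrl1 (now Ackr4) on 6 and Cxcr6 on 5. Ccr9, the receptor for Ccl25, was above background on 0 arrays, although both Ccl25 probes were bright on every array. Ccr1, Ccr1l1, Ccr2, Ccr3, Ccr10 and Cxcr7 (now Ackr3) were also above background on none, and Ccr4, Ccr7, Ccr8 and Cxcr3 on 1 to 3 arrays. A probe that does not rise above background in whole ileum does not show that its transcript is absent. A receptor carried by a few leukocytes can lie under background, and a probe can miss its transcript. Fabp2 and Slc10a2, markers of ileal epithelium, were also above background on 0 arrays.

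**Figure D1:**
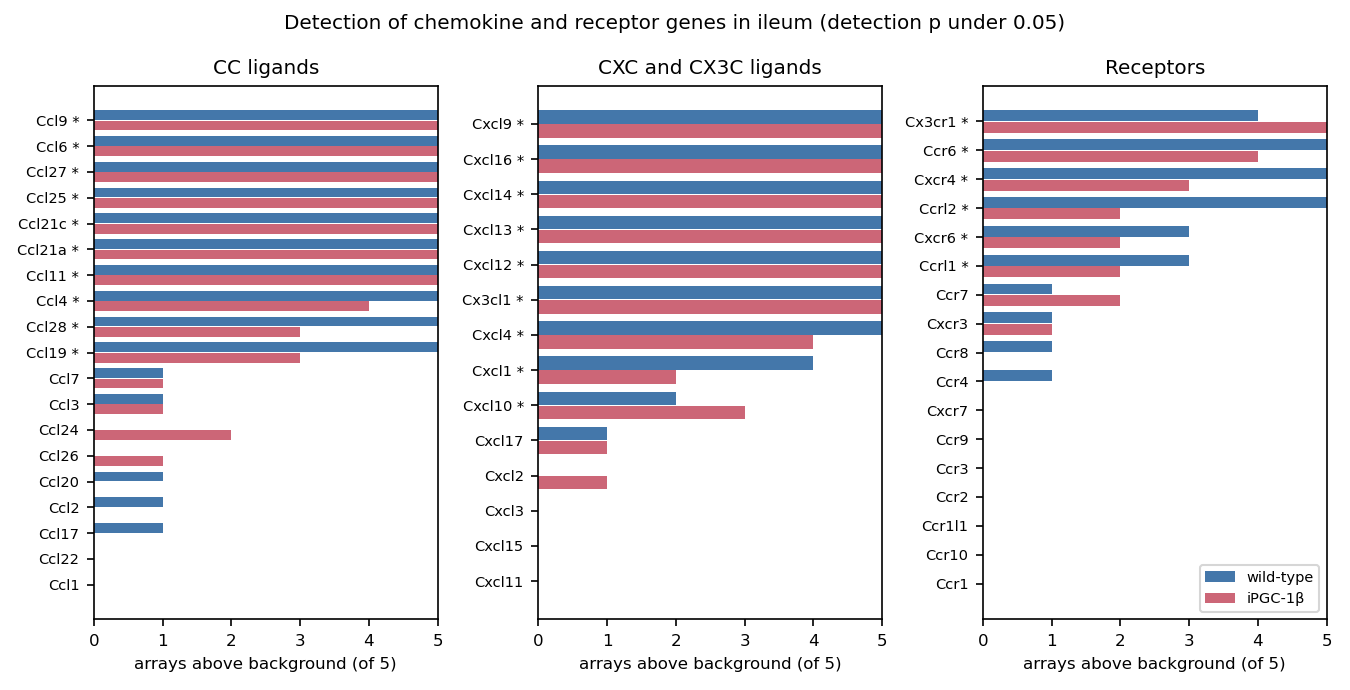
Number of arrays above background (detection p under 0.05) for 50 of the 51 chemokine and receptor genes, out of 5 wild-type (blue) and 5 iPGC-1β (red) arrays, for the probe with the most in each group; an asterisk marks the 25 tested genes. Of the 17 receptor genes drawn 7 show no bar.

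Of the 25 tested genes 2 were lower on the iPGC-1β arrays, 0 were higher and 23 did not pass (limma, adjusted p under 0.05 over all 9365 genes). Those that fell were Ccrl2 and Ccl9. Of all tested genes 17.3% were called, 7.41% lower and 9.88% higher. The 2 lower genes are 8.00% of the 25, a share near that background. At an unadjusted p under 0.05, 8 were lower (32% of the 25, against 16% of all tested genes) and 1 was higher (against 15.2%), together 9 genes against 31.3% of all tested genes. At the probe that stood for a gene the groups overlapped for each of the 25 genes, while 14.3% of all tested genes did not overlap, 8.66% higher and 5.62% lower. A second Ccl25 probe, described below, did separate the groups.

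Most differences had a negative sign without passing the test. The log2 difference was below 0 for 20 of the 25 genes (80.0%, against 55.8% of all tested genes), with a median of -0.25 against -0.05 for all tested genes. This share rests on single arrays. Without iPGC-1β replicate 3 it was 14 of 25, without wild-type replicate 5 it was 13 of 23, and without both it was 13 of 25, with a median of -0.03. With arrays weighted by their fit it was also 13 of 25. Only genes above background enter these counts, so they do not describe all 51.

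**Figure D2:**
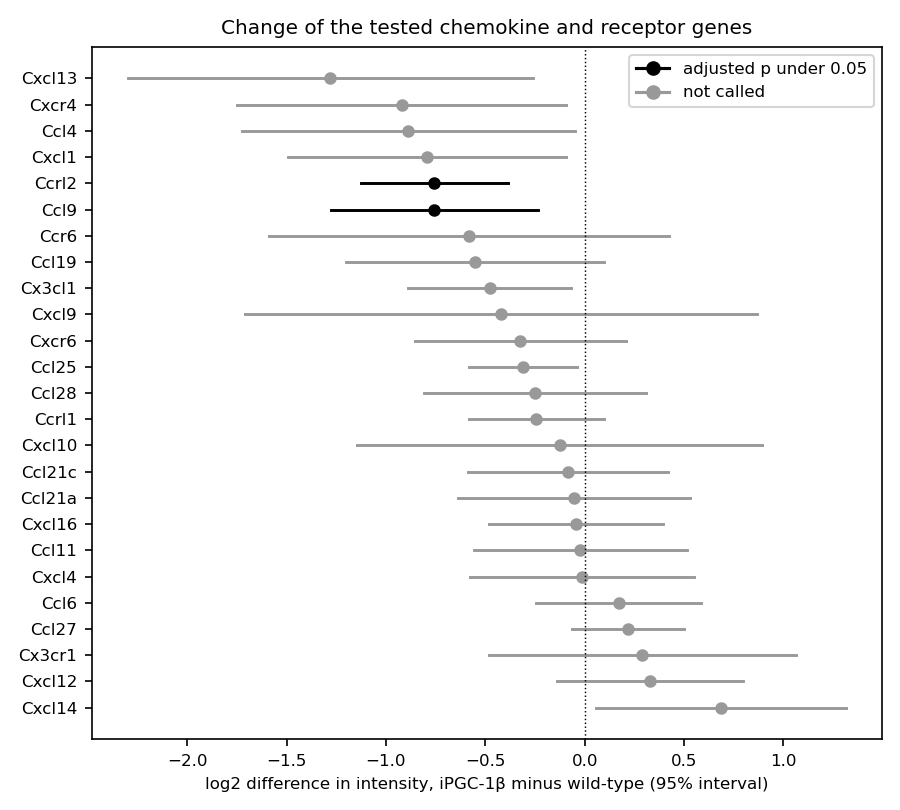
Log2 difference in intensity, iPGC-1β minus wild-type, with its 95% interval from limma for the 25 tested genes, n = 5 arrays per group; black marks an adjusted p under 0.05. Ccrl2 and Ccl9, both at -0.76, are black, and the intervals of 16 genes cross 0.

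Ccrl2 codes for an atypical receptor that binds the leukocyte attractant chemerin and does not signal in the usual way. Its log2 intensities were 5.87, 5.69, 6.07, 5.60 and 5.86 on wild-type replicates 1 to 5 and 5.61, 4.92, 4.73, 5.16 and 4.90 on iPGC-1β replicates 1 to 5. Only iPGC-1β replicate 1 reached the wild-type range, just above its lowest array, and the other iPGC-1β arrays lay below it. The mean fell from 5.82 ± 0.18 to 5.06 ± 0.34 (SD, n = 5 each). The log2 difference was -0.76 ± 0.17 (SE), or 1.69-fold, at limma's adjusted p = 0.00886. The exact permutation test, two-sided, gave p = 0.0159. The probe was above background on 5 wild-type and 2 iPGC-1β arrays, so the size depends on the background correction. Without that correction the difference was -0.23 and still called (limma's adjusted p = 0.0373). The call was kept under all 22 alternatives in which Ccrl2 was tested. Outside the family, the chemerin gene Rarres2 differed by -0.14 (limma's adjusted p = 0.727), and its signalling receptor gene Cmklr1 was above background on 0 arrays.

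Ccl9 codes for a CC ligand of mice that attracts myeloid cells and is known from follicle-associated epithelium. Log2 intensities of 8.06, 8.70, 8.51, 8.17 and 8.86 were found on wild-type replicates 1 to 5 and of 8.35, 7.94, 6.94, 7.69 and 7.59 on iPGC-1β replicates 1 to 5. The groups overlapped through iPGC-1β replicate 1, and replicate 3 was the lowest. The mean fell from 8.46 ± 0.34 to 7.70 ± 0.52 (SD, n = 5 each). The log2 difference was -0.76 ± 0.24 (SE), or 1.69-fold, at limma's adjusted p = 0.0474. The exact permutation test gave p = 0.0317. This call is close to the threshold. Leaving out any 1 of wild-type replicates 2, 3, 4 and 5 or iPGC-1β replicates 3, 4 and 5 ended it, with limma's adjusted p between 0.0544 and 0.105, and the difference stayed negative. It was also lost without the filter on dim probes (adjusted p = 0.0839) and without wild-type replicate 5 and iPGC-1β replicate 3 together (-0.47, adjusted p = 0.135). In whole tissue, fewer cells that make a transcript and less of it per cell cannot be told apart.

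Ccl6, a related myeloid attractant, lies close to Ccl9 on the mouse assembly GRCm38.p6. Its log2 intensities were 8.21, 8.45, 8.74, 8.33 and 8.20 on the wild-type and 9.26, 8.26, 8.32, 8.44 and 8.50 on the iPGC-1β arrays, in the order of the replicates. The groups overlapped, with iPGC-1β replicate 1 the highest array. Its log2 difference was 0.17 with a 95% interval from -0.24 to 0.59 and limma's adjusted p = 0.587, and it was -0.0038 without iPGC-1β replicate 1. Within each array, log2 Ccl9 minus log2 Ccl6 lay between -0.23 and 0.66 in wild-type and between -1.38 and -0.32 in iPGC-1β ileum, a pair chosen after its values were seen and not tested.

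The promoters of the genes that fell are printed because chemokine genes are known as targets of NF-κB. Those of Ccl6 and Cxcl14 are printed for contrast. Ccl6 lies close to Ccl9, with E230016K23Rik between them, and Cxcl14 is the gene with the largest difference above 0. Each runs from 250 bases before to 50 after a transcription start, 300 bases from RefSeq on GRCm38.p6, 5′ to 3′ on the strand of the gene. For Ccrl2 the outermost of 3 starts in the table is shown. Capitals mark matches on either strand to the TATA box TATAAA, the STAT element TTCNNNGAA, the κB consensus and the ERR half-site AAGGTCA. ERR receptors are known partners of PGC-1 coactivators.
Ccl9, chr11:83578587-83578886, minus strand: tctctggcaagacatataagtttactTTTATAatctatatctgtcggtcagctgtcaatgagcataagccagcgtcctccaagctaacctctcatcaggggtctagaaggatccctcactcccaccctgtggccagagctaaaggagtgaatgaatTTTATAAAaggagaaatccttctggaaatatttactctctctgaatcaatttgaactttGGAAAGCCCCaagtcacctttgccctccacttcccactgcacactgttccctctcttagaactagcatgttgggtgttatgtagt
Ccl6, chr11:83593038-83593337, minus strand: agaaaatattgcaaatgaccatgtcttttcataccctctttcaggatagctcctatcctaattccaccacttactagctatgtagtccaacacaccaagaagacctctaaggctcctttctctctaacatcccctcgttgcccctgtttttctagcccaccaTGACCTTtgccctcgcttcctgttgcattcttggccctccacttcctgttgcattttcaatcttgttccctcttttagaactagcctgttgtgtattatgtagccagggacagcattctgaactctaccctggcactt
Ccrl2, chr9:111057469-111057768, minus strand: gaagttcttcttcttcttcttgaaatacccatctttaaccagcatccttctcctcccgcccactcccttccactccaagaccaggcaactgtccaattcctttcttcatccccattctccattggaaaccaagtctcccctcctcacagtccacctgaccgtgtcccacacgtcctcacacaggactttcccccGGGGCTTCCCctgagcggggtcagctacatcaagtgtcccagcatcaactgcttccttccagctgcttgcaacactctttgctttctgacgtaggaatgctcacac
Cxcl14, chr13:56296502-56296801, minus strand: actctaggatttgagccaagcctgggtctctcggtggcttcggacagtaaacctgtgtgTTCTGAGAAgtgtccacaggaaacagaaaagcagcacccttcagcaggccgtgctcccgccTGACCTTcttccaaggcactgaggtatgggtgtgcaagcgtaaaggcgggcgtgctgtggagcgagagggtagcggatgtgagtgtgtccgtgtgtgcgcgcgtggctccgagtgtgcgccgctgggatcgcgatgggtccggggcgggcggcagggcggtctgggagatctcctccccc
A κB match began 35 bases before the start in Ccl9 and 56 bases before it in Ccrl2. In Ccrl2 it reads as a match on both strands, and the windows of the other Ccrl2 starts held none. Ccl9 also held TATA box matches on both strands around 92 bases before the start, which overlap each other. A further TATA box match, on the opposite strand, began 224 bases before the Ccl9 start. The ERR half-site was found in Ccl6 and Cxcl14, and the STAT element in Cxcl14. Of all 32851 promoters given by RefSeq, 8.46% hold the κB consensus, 13.6% the TATA box, 8.30% the STAT element and 4.72% the ERR half-site. Among 44 promoters of 38 of the 51 genes, 12 held the κB consensus, 11 the TATA box, 4 the STAT element and 4 the ERR half-site. Those with the κB consensus include Ccl27a, Ccr6, Cxcl1 and Cxcl10, which were tested and not called, and genes that were not tested. The longest run that the Ccl9 and Ccl6 windows share is gccctccacttcc, 13 bases. A match describes letters in a window and does not show binding.

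Apart from Ccl9, none of the tested ligands that intestinal epithelium is known to secrete or display was called over all genes. Ccl25 guides gut-homing T cells and plasma cells to the small intestine. The brighter Ccl25 probe read 13.38, 13.46, 13.11, 13.18 and 13.09 on the wild-type and 13.09, 13.02, 12.93, 12.77 and 12.86 on the iPGC-1β arrays (log2 intensity, replicates 1 to 5). The groups met only at 13.09, the lowest wild-type and the highest iPGC-1β value. Its log2 difference was -0.31 ± 0.13 (SE), with a 95% interval from -0.58 to -0.04 and limma's adjusted p = 0.113.

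A second Ccl25 probe was separated between the groups, at 12.64 ± 0.16 on the wild-type and 12.21 ± 0.09 on the iPGC-1β arrays (log2 intensity, SD, n = 5 each). Its wild-type arrays lay at 12.42 or above and its iPGC-1β arrays at 12.29 or below. Of all tested genes, with 1 probe each, 5.62% were separated with iPGC-1β lower. When all kept probes were tested, the difference of -0.43 of the second Ccl25 probe was called (limma's adjusted p = 0.0327). In that fit 779 of 12349 probes were called lower and 1194 higher. The exact permutation p of the second Ccl25 probe, 0.00794, is the lowest possible for these group sizes. The brighter probe was itself called without background correction (limma's adjusted p = 0.0388), on the authors' processed values (0.0385) and with array weights (0.0307). Of the 10 tested markers of ileal epithelium 2 fell (Fgf15, -1.79, and Cdh17, -0.51, log2 differences) and 0 rose, where 7.41% of all tested genes fell. Fgf15 has the largest difference of the 10, and their mean lay between 11.79 and 12.02 in wild-type and between 11.33 and 11.58 in iPGC-1β ileum. Their part in the Ccl25 difference was not tested.

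Cx3cl1, or fractalkine, is a ligand tethered to epithelial and endothelial membranes. The wild-type arrays read 9.21, 9.16, 9.13, 9.07 and 8.20 and the iPGC-1β arrays 8.21, 8.55, 8.42, 8.63 and 8.57 (log2 intensity, replicates 1 to 5). Wild-type replicate 5 lay just below the lowest iPGC-1β array, and the other wild-type arrays lay above all of them. The log2 difference was -0.48 ± 0.19 (SE) with limma's adjusted p = 0.106 on all arrays. It was -0.67 with adjusted p = 0.00363 without wild-type replicate 5, and -0.65 with adjusted p = 0.00762 without iPGC-1β replicate 3 as well. With array weights it was -0.56 (adjusted p = 0.0163). With any other single array left out Cx3cl1 lay between -0.51 and -0.41 and did not pass (adjusted p between 0.118 and 0.212). Its receptor gene Cx3cr1, known from macrophages of the lamina propria, differed by 0.29 with a 95% interval from -0.48 to 1.06. That value was 0.61 with wild-type replicate 5 left out, 0.46 with iPGC-1β replicate 3 left out and 0.78 with neither array (limma's adjusted p = 0.0578), and 0.06 without wild-type replicate 3 and 0.10 without iPGC-1β replicate 1.

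Cxcl14 is a ligand of epithelia and stroma, and was the only gene with an unadjusted p under 0.05 and a difference above 0. It read 5.83, 5.99, 5.89, 6.52 and 7.18 on the wild-type and 7.38, 6.89, 6.35, 7.60 and 6.63 on the iPGC-1β arrays (log2 intensity, replicates 1 to 5). Wild-type replicates 4 and 5 lay within the iPGC-1β range and the others below it. The log2 difference was 0.69 ± 0.29 (SE) with limma's adjusted p = 0.125. It was 0.91 with adjusted p = 0.0253 without wild-type replicate 5, and 1.07 with adjusted p = 0.00977 without iPGC-1β replicate 3 as well. With any other single array left out it lay between 0.53 and 0.84 and did not pass (adjusted p between 0.0739 and 0.257). Without background correction it was 0.33 (adjusted p = 0.159). A second Cxcl14 probe differed by 0.37 and was not called.

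Other genes of this group did not pass. Ccl28, which attracts plasma cells that make IgA, differed by -0.25, Cxcl16, a membrane-bound ligand, by -0.04 and its receptor gene Cxcr6 by -0.32, on the log2 scale. Ccr6 differed by -0.58 with a 95% interval from -1.59 to 0.43, and its second probe by -0.55. The Ccr6 difference rested on single arrays: it was -0.24 with wild-type replicate 5 left out, -0.39 with iPGC-1β replicate 3 left out, -0.04 without both, -0.31 without iPGC-1β replicate 1 and -0.90 without iPGC-1β replicate 2. Without wild-type replicate 5 and iPGC-1β replicate 3, Ccl28 differed by 0.02 and Cxcr6 by -0.15. Ccl28 was -0.11 without wild-type replicate 5, -0.12 when either replicate 3 or 4 of iPGC-1β was left out and -0.40 without wild-type replicate 4, and Cxcr6 was -0.17 without iPGC-1β replicate 3.

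**Figure D3:**
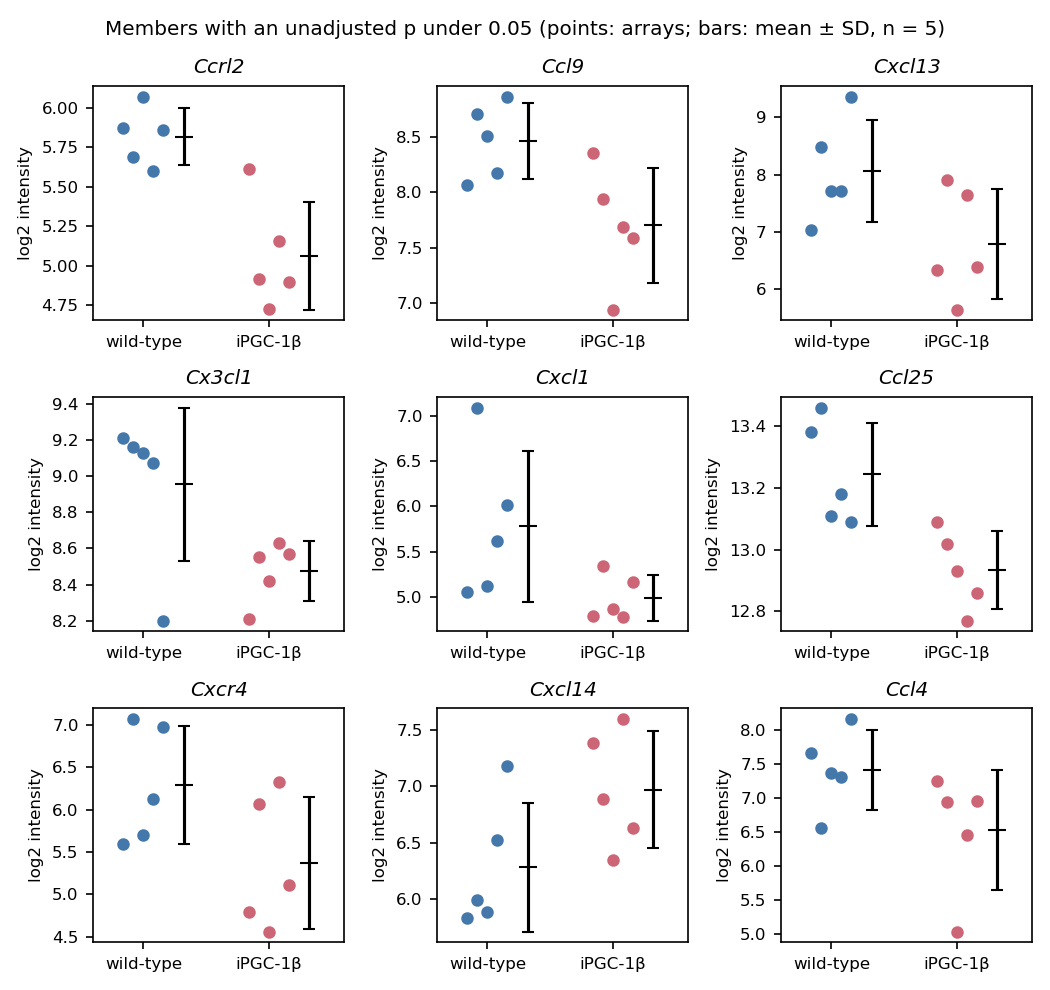
Log2 intensity of the 9 genes with an unadjusted p under 0.05 on each array (points; blue wild-type, red iPGC-1β) with mean ± SD, n = 5 per group. The Cx3cl1 value of wild-type replicate 5, at 8.20, lies just below the lowest iPGC-1β array at 8.21, and no panel separates the groups completely.

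Genes of lymphoid tissue varied widely between arrays of the same group. Cxcl13, made by follicular stroma, draws B cells into follicles. The wild-type arrays read 7.04, 8.48, 7.72, 7.71 and 9.36 and the iPGC-1β arrays 6.34, 7.91, 5.64, 7.64 and 6.38 (log2 intensity, replicates 1 to 5). The highest array was wild-type replicate 5 and the lowest iPGC-1β replicate 3, and the groups overlapped. Its log2 difference of -1.28 ± 0.47 (SE) was the largest of the 25 genes in size and did not pass (limma's adjusted p = 0.0817, exact permutation p = 0.0714). Without wild-type replicate 5 and iPGC-1β replicate 3 the difference was -0.67 (adjusted p = 0.270), and without iPGC-1β replicate 2 it was -1.56 and called (adjusted p = 0.0370).

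Cxcr4, the receptor for Cxcl12 on lymphocytes, read 5.59, 7.07, 5.70, 6.12 and 6.97 on the wild-type and 4.79, 6.06, 4.56, 6.32 and 5.11 on the iPGC-1β arrays (log2 intensity, replicates 1 to 5). The groups overlapped, and 3 iPGC-1β arrays lay below all wild-type arrays. Its log2 difference was -0.92 ± 0.38 (SE) with limma's adjusted p = 0.120, and -0.55 without wild-type replicate 5 and iPGC-1β replicate 3. Its ligand gene Cxcl12, a stromal factor, differed by 0.33 with a 95% interval from -0.14 to 0.80, and its other kept probes by 0.26 and -0.02. The Cxcl12 value was 0.53 without wild-type replicate 5 and iPGC-1β replicate 3 and 0.20 without iPGC-1β replicate 1. Of the T cell zone ligands, Ccl19 differed by -0.55 (-0.37 without wild-type replicate 5 and -0.27 without iPGC-1β replicate 3 as well), Ccl21a by -0.05 and Ccl21c by -0.08. The Ccl21 genes are near-identical copies, and their probes may not tell them apart.

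Lymphocyte markers were also high on wild-type replicate 5 and low on iPGC-1β replicate 3. Of 13 B and plasma cell markers on the array 8 were tested, 1 fell (Xbp1) and 0 rose, where 7.41% of all tested genes fell. Xbp1 varied little between wild-type arrays (12.37 ± 0.02, log2 intensity, SD, n = 5), unlike the list mean. Igj and Tnfrsf17 differed by 0.43 and 0.20 and did not pass, and the remaining tested markers had differences below 0. The mean log2 intensity of the 8 was 8.02 on wild-type replicate 5 and between 6.68 and 6.84 on the remaining wild-type arrays. It lay between 6.12 and 7.28 on the iPGC-1β arrays, lowest on replicate 3. Ms4a1, Pax5 and Cr2, which define B cells, were above background on 0 arrays. Of 16 T cell markers 9 were tested and 0 passed, with Cd8a and Gzmb above background on 0 arrays. Each of the 9 had a difference below 0, with a median log2 difference of -0.66. Their mean lay between 7.34 and 8.13 in wild-type and between 5.66 and 7.62 in iPGC-1β ileum, with 5.66 on replicate 3. Of 11 lymphoid follicle markers 10 were tested and 1 fell (Marcksl1), against 7.41% of all tested genes. The mean of the 10 was highest on wild-type replicate 5 (7.70) and lowest on iPGC-1β replicate 3 (6.29). The part of these cells in the differences of Cxcl13, Cxcr4, Ccr6 and Ccl19 was not tested.

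Cxcl9 and Cxcl10 are interferon-induced ligands that draw activated T cells, and Cxcl9 had the widest interval of the 25 genes. It read 8.00, 7.04, 7.84, 7.83 and 10.07 on the wild-type and 8.09, 8.14, 5.60, 8.14 and 8.71 on the iPGC-1β arrays (log2 intensity, replicates 1 to 5). The highest array was wild-type replicate 5 and the lowest iPGC-1β replicate 3. The groups overlapped, and leaving out either extreme of Cxcl9 necessarily raised its difference. Its log2 difference was -0.42 with a 95% interval from -1.71 to 0.87, 0.06 with wild-type replicate 5 left out, 0.11 with iPGC-1β replicate 3 left out, and 0.59 without both (limma's adjusted p = 0.0946). Leaving out wild-type replicate 2 or iPGC-1β replicate 5 gave -0.70 and -0.67. Cxcl10, above background on 2 wild-type and 3 iPGC-1β arrays, differed by -0.13, and by 0.54 without both arrays. The receptor gene Cxcr3 was above background on 1 array per group. Of 27 interferon-stimulated genes on the array 20 were tested, 2 fell and 0 rose, with a median log2 difference of -0.47; of all tested genes 7.41% fell. The genes that fell were Irf7, a transcription factor of the interferon response (-0.77), and Irgm1, an interferon-induced GTPase gene (-0.89). For both, the iPGC-1β arrays lay below all wild-type arrays, which held for 5.62% of all tested genes. The list mean was 7.39 on iPGC-1β replicate 3 and between 8.46 and 9.22 on the other 9 arrays, and its part in the Cxcl9 values was not tested.

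**Figure D4:**
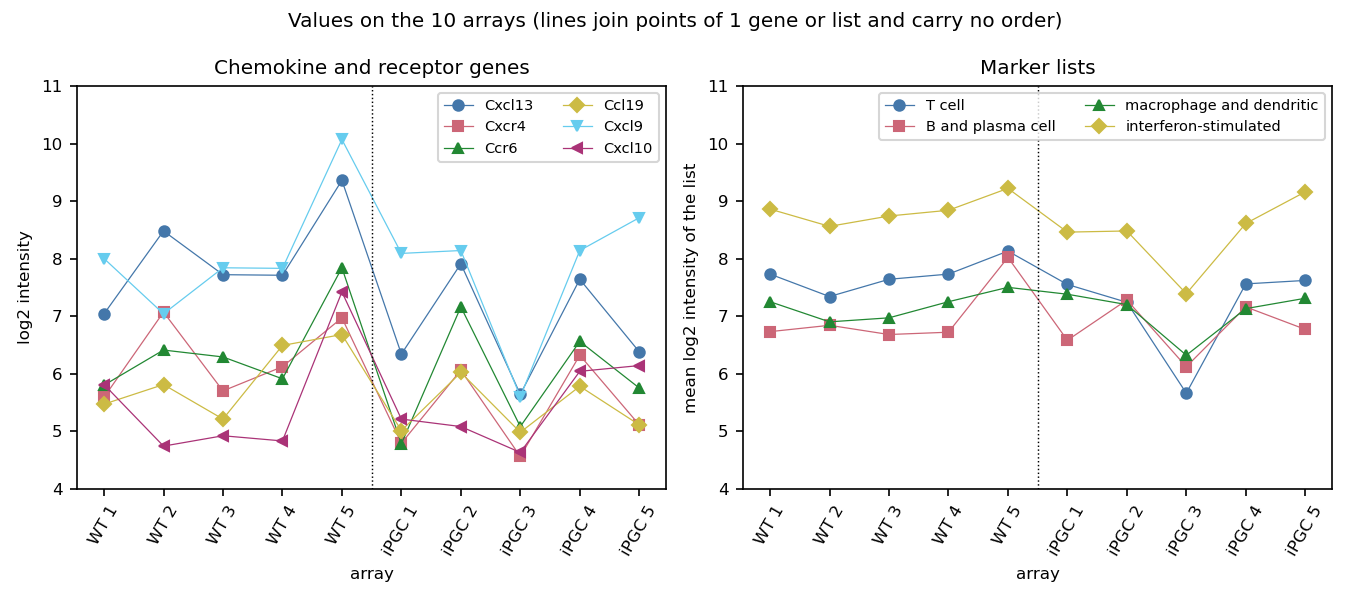
Log2 intensity of 6 chemokine and receptor genes (left) and mean log2 intensity of 4 marker lists (right) on each of the 10 arrays; the dotted line parts wild-type (WT) from iPGC-1β (iPGC) arrays. Cxcl13, Cxcl9, Cxcl10, Ccr6, Ccl19 and each of the lists peak on wild-type replicate 5, and the lists are lowest on iPGC-1β replicate 3.

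The genes of neutrophil and monocyte attraction were mostly dim. Cxcl1, which recruits neutrophils through Cxcr2, read 5.05, 7.09, 5.12, 5.62 and 6.01 on the wild-type and 4.79, 5.34, 4.86, 4.78 and 5.16 on the iPGC-1β arrays (log2 intensity, replicates 1 to 5). Wild-type replicate 2 was the highest array and the groups overlapped. Its log2 difference was -0.79 ± 0.32 (SE) with limma's adjusted p = 0.113, and -0.46 without wild-type replicate 2. The probe was above background on 4 wild-type and 2 iPGC-1β arrays. The Cxcr1 and Cxcr2 genes, listed on the array as Il8ra and Il8rb, were above background on 0 arrays. Of 11 neutrophil markers 2 were tested and 0 passed, and S100a9, Ngp and Mmp8 were above background on 0 arrays.

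Ccl4, a ligand made by T cells and macrophages, read 7.66, 6.55, 7.36, 7.31 and 8.16 on the wild-type and 7.24, 6.93, 5.03, 6.45 and 6.95 on the iPGC-1β arrays (log2 intensity, replicates 1 to 5). The lowest array was iPGC-1β replicate 3, and the groups overlapped. Its log2 difference was -0.89 ± 0.39 (SE) with limma's adjusted p = 0.138. It was -0.51 without iPGC-1β replicate 3 and -0.33 without wild-type replicate 5 as well. A second, dimmer probe differed by -0.16. Of 19 macrophage and dendritic cell markers 15 were tested and 1 fell, where 7.41% of all tested genes fell. It was Ctss (-0.50), which codes for the protease cathepsin S. The median log2 difference of the 15 was -0.09. Emr1, Csf1r, Aif1, Mgl2, C1qa and Cd68 had differences above 0, and the remaining tested markers had differences below 0. Eotaxin, coded by Ccl11 and known to hold eosinophils in the gut, differed by -0.02 with a 95% interval from -0.56 to 0.51. Of the remaining tested genes, Ccl27 (now Ccl27a) differed by 0.22, Cxcl4 by -0.01 and the scavenging receptor gene Ccrl1 by -0.24, and none passed.

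Further chemokine and receptor genes, and genes listed beside them, lie outside the naming rule. Of 16 such genes on the array 9 were tested, 1 fell and 0 rose, with a median log2 difference of -0.27. Among all tested genes 7.41% fell. The one that fell was Dpp4, a brush border peptidase gene whose product also clips chemokines (-0.46 ± 0.14, SE, limma's adjusted p = 0.0448). Cmtm6 differed by -0.37, the erythrocyte and endothelial scavenging receptor gene Darc (Ackr1) by -0.62 and the cytokine gene Mif by -0.59, and these did not pass.

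Downstream of the receptors, 28 of 36 signalling genes were tested, 1 fell and 0 rose, with a median of -0.26. Of all tested genes 7.41% fell and 9.88% rose. The gene that fell was Elmo1, which helps to activate Rac in migrating cells (-0.59 ± 0.16, SE, limma's adjusted p = 0.0218). Crk (0.34), Prkcd (-0.41) and Arrb1 (0.37) did not pass. The mean of the list was between 7.93 and 8.00 in wild-type and between 7.42 and 7.88 in iPGC-1β ileum.

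Upstream, 19 of 28 genes of NF-κB signalling and its cytokines were tested, 3 fell and 1 rose, with a median of -0.19. That is 4 of 19, where 17.3% of all tested genes were called. Rela, which codes for a main NF-κB subunit, differed by -0.57 ± 0.15 and the adhesion molecule gene Icam1 by -0.74 ± 0.22 (SE, limma's adjusted p = 0.0195 and 0.0356). Myd88, an adaptor gene of Toll-like receptors, fell by 0.40 and Ikbkg, a kinase complex subunit gene, rose by 0.44 (adjusted p = 0.0485 and 0.0386). For Rela, Icam1 and Myd88 all iPGC-1β arrays lay below all wild-type arrays, which held for 5.62% of all tested genes. Il6 was above background on 0 arrays and Tnf on 1.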

How the data were processed

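Per the labels' protocols, RNA was isolated with Qiazol and biotin-labelled for Illumina arrays. The submitters' processing notes name GenomeStudio. The deposited table holds, per the file headers, an average signal (intensity, linear scale) and a detection p-value per probe and array. The authors' processed intensity values, deposited separately, served as an alternative; no source used here says how they were made. Of columns with sample values, 0 were left unused. Signals were background-corrected with normexp inferred from the detection p-values (offset 16), quantile-normalized and log2-transformed by neqc (R 4.3.3, limma 3.58.1). Probes with a detection p under 0.05 on at least 5 of 10 arrays were kept (12349 probes); with 1 array left out, at least 5 of the others had to pass. The kept probe with the highest mean stood for a symbol. Groups, from the genotype label, entered limma's lmFit and eBayes without covariates, and p-values were adjusted over 9365 genes by Benjamini-Hochberg. Single genes were also compared by a two-sided exact permutation test over 252 relabelings. Nothing says that arrays come from separate litters or give a slide or sex, so the p-values reflect only variation among these arrays, which may be technical, and the number of arrays limits the precision. Between 2 arrays of a group the correlation over tested genes was 0.959 to 0.987, and 0 pairs were identical. Named are the 51 genes except 1 untested gene, which is not reported here, and from each other list up to 4 genes with the smallest unadjusted p, not all of which are used. Members, lists and rules were chosen with earlier results of these data known, and Cxcl4 was placed in a role afterwards. RefSeq (GRCm38.p6) lists 47 of the 51 symbols as current and 4 as synonyms. On simulated data with 200 changed genes of 9365, the test recovered 0% at a log2 change of 0.5, 80.5% at 1 and 92.0% at 1.5. The data differ from this setting, with 17.3% of all tested genes called, so these shares do not carry over to them. Differences under 0.5 in size were called in the data, such as Dpp4 at -0.46. Alternatives were other background corrections and normalizations, the processed values, other filters, all kept probes, other variance models, a threshold of 0.10 and arrays left out.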

Additional observations from a re-analysis of the deposited data

Results flagged for a closer look

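Each of the 25 tested genes was checked in both groups for an array far from the other 4. Of the 50 gene and group pairs 3 were marked, where chance marks about 5%. Ccl6 read 9.26 on iPGC-1β replicate 1, against 8.26 to 8.50 on the other iPGC-1β arrays. Cx3cl1 read 8.20 on wild-type replicate 5, while the remaining wild-type arrays lay between 9.07 and 9.21. Cxcl9 read 5.60 on iPGC-1β replicate 3, against 8.09 to 8.71 on the other iPGC-1β arrays.

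Among the 26 genes not tested, Ccl24, an eotaxin gene, was above background on 2 iPGC-1β arrays and on 0 wild-type arrays. Its log2 intensity was highest on iPGC-1β replicates 1 (5.85) and 3 (5.78). The difference was not tested.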

How the results depend on the processing

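Of 544 changes of single genes under alternatives, 486 kept their direction and side of the threshold, 9 lost a call (all for Ccl9), 11 gained one and 38 changed sign, all of these for uncalled genes. The number of chemokine and receptor genes called lower, 2, was 1 without the filter and with detection p under 0.01 on all 10 arrays, 4 with array weights, and 1 to 3 with 1 array left out. Ccrl2 was called in each of these except under the strict filter, where it was not tested and Ccl9 was called. The number called higher, 0, was 1 with array weights and 0 to 1 with 1 array left out, each time Cxcl14, and 1 without wild-type replicate 5 and iPGC-1β replicate 3. Over all genes 694 were lower, against 1105 with array weights, 1077 at an adjusted p under 0.10 and 421 to 792 with 1 array left out; 925 were higher, and 748 to 947 with 1 left out.

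Changes of sign were found for 9 uncalled genes, with differences on all arrays from -0.42 (Cxcl9) to 0.17 (Ccl6). Without background correction, on the processed values and with array weights Ccl11 lay at 0.0075, 0.0076 and 0.017 and Cxcl4 at 0.011, 0.011 and 0.023, and Cxcl4 at 0.016 with an offset of 50. Array weights gave 0.0624 for Ccl21a, 0.0306 for Ccl21c, 0.36 for Cxcl10, 0.0563 for Cxcl16 and 0.11 for Cxcl9. Without wild-type replicate 5 and iPGC-1β replicate 3 the values were 0.35 for Ccl21a, 0.23 for Ccl21c, 0.024 for Ccl28, 0.54 for Cxcl10, 0.06 for Cxcl16, 0.14 for Cxcl4 and 0.59 for Cxcl9. Over the fits with arrays left out Ccl28 lay between -0.399 and 0.024. With 1 array left out the ranges were -0.16 to 0.23 for Ccl11, -0.18 to 0.18 for Ccl21a, -0.21 to 0.12 for Ccl21c, -0.0038 to 0.26 for Ccl6, -0.33 to 0.07 for Cxcl10, -0.18 to 0.0874 for Cxcl16, -0.22 to 0.17 for Cxcl4 and -0.70 to 0.11 for Cxcl9. Why these values moved was not tested. Signal over background limits dim genes, such as Ccrl2, whose difference of -0.76 was -0.23 without background correction. No paired analysis was possible because the replicate numbers only name arrays and pair none across groups.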

Other observations

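Markers of other cell types were also measured. Of 15 endothelial and lymphatic markers on the array 11 were tested, 2 rose and 0 fell, with a median log2 difference of 0.32. Of all tested genes 9.88% rose and 7.41% fell. The genes that rose were Flt1, which codes for a receptor of vascular endothelial growth factor (0.92, limma's adjusted p = 0.00114), and Emcn, a sialomucin gene of venous and capillary endothelium (0.58, adjusted p = 0.0266). All 15 fibroblast and smooth muscle markers were tested and none passed, with a median of -0.04. None of the 12 Paneth and goblet cell markers passed (median -0.21), and neither did any of the 3 tested mast cell and eosinophil markers (median -0.31).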
